A study of Mus musculus with 20 samples.

Results

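Choline is either built into phosphatidylcholine (PC) or oxidized, and 10 genes of these routes were followed in mouse liver. They were *Pemt*, *Chka*, *Pcyt1a* and *Pcyt2* for phospholipid synthesis and *Chdh*, *Aldh7a1*, *Bhmt*, *Bhmt2*, *Dmgdh* and *Sardh* for choline oxidation. They were taken by gene symbol from a table of 46078 genes. All 10 had enough counts to be tested, among 14759 genes tested. The livers came from 20 male mice, at least 9 weeks old, with or without *Cse* (gene symbol *Cth*), which encodes cystathionine γ-lyase, the enzyme that releases cysteine from cystathionine. *Cse*-/- mice are knockouts on a 129/C57BL/6 background and depend on cysteine from food. The *Cse*+/- groups received the control diet (n = 2), a diet free of cysteine (no-Cys, n = 4) or a diet free of tryptophan (no-Trp, n = 3). For *Cse*-/- mice there were 4 livers on no-Cys, 3 on no-Trp and 4 on no-Trp with l-buthionine sulfoximine (BSO), which blocks the first step of glutathione synthesis. No *Cse*-/- group fed the control diet was used here. All mice had been on a calorie-restricted control diet for 3 days, the diets of all groups were calorie-restricted as well, and livers were taken 2 days after the shift of diet. The sample labels call the control genotype WT, whereas the study's list of mice calls it heterozygous, and *Cse*+/- is used here.

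Choline enters PC through the Kennedy pathway: choline kinase phosphorylates it, a second enzyme activates it with CTP, and a last transferase joins it to diacylglycerol. A parallel branch makes phosphatidylethanolamine (PE) from ethanolamine, and in liver PE can be methylated stepwise by PEMT to give PC. Choline that is not used for phospholipid is oxidized in mitochondria to betaine, a methyl donor that turns homocysteine back into methionine, and the remaining dimethylglycine is stripped to sarcosine and glycine. Homocysteine is also the substrate of transsulfuration, the pathway that ends with *Cse*, so both routes draw on the same metabolite.

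Of the oxidation genes, 3 lie side by side on chromosome 13 (GRCm38 throughout). *Bhmt* occupies chr13:93616675-93637961 and *Bhmt2* chr13:93655720-93674302, both on the minus strand, 17758 bases apart. *Dmgdh* follows on the plus strand at chr13:93674433-93752833, so that *Bhmt2* and *Dmgdh* are transcribed away from each other from starts 130 bases apart. The stretch between those starts is shown because both genes share it (RefSeq, GRCm38.p6, chr13:93674303-93674432, plus strand, 5′ to 3′). Capitals mark a GC box (GGGCGG, here read on the minus strand), the only match there among the 5 motifs searched:

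Bhmt2-Dmgdh stretch: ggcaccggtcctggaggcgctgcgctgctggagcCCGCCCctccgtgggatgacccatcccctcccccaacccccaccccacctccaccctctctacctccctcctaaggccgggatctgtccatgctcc

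This stretch is 70.8% G and C and holds 6 CpG dinucleotides. Promoter windows of 8 of the 10 genes were searched (all but *Pcyt2* and *Aldh7a1*), 13 windows in all (250 bases before to 50 after each start), on both strands and with overlaps between motifs allowed. TGATGNAA, the C/EBP-ATF element bound by ATF4 in the response to missing amino acids, was in 3.97% of 32851 mouse promoters and in 0 of the 13 windows. TGACNNNGC, the core of the antioxidant response element bound by NRF2, was in 12.4% of all promoters and in 2 overlapping windows of *Pcyt1a*. A sterol regulatory element was in 0.234% of promoters and in 0 of the windows. The E box CANNTG was in 72.3% of promoters and in 11 of the 13 windows. GGGCGG, added after the sequence had been read, was in 35.7% of promoters and in 6 of the 13 windows (*Bhmt2*, *Chdh*, *Chka*, *Dmgdh* and 2 of *Pcyt1a*), of which those of *Bhmt2* and *Dmgdh* overlap and hold the same GC boxes, as do both of *Pcyt1a*. These are matches of letters only.

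**Figure D1:**
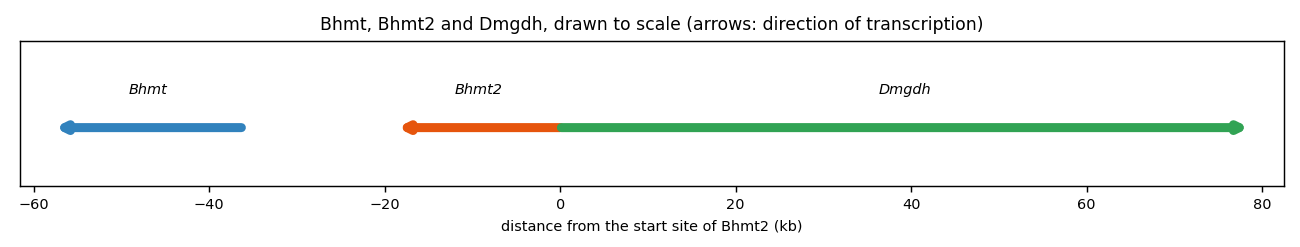
Map of *Bhmt*, *Bhmt2* and *Dmgdh*, with distance from the start of *Bhmt2* in kb on the x axis and arrows for the direction of transcription. *Bhmt2* and *Dmgdh* start 130 bases apart and point away from each other, and *Bhmt* lies 17758 bases from *Bhmt2*.

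The other genes are scattered. *Pemt* (chr11:59970614-60046489) and *Pcyt2* (chr11:120610087-120617936) lie on the minus strand of chromosome 11. *Chka* (chr19:3851773-3894369), *Pcyt1a* (chr16:32430921-32475070) and *Chdh* (chr14:30009023-30040527) are on the plus strand, and *Aldh7a1* (chr18:56509687-56572951) and *Sardh* (chr2:27188393-27248337) on the minus strand. Bhmt-type enzymes are related: the coding sequences of *Bhmt* and *Bhmt2* were 75.4% identical over 1088 aligned bases. *Pcyt1a* and *Pcyt2* were 65.9% identical over 951 aligned bases, and *Dmgdh* and *Sardh* 63.8% over 2390.

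Libraries held 11785740 to 57986121 counts on genes. *Cth* marked the genotype in every liver: it was at 88.4 to 332 CPM (counts scaled to library size with TMM factors) in the 9 *Cse*+/- livers and at 6.37 to 14.4 CPM in the 11 *Cse*-/- livers. Hepatocyte markers (*Alb*, *Ttr*, *Apoa1*, *Apob*, *Serpina1a* and *Fgb*) were abundant in all livers but summed to 41478 to 72043 CPM in *Cse*-/- no-Cys livers against 88144 to 113601 CPM in *Cse*+/- no-Cys livers. They summed to 67933 to 72752 CPM in *Cse*-/- no-Trp and 64080 to 79500 CPM in *Cse*-/- no-Trp + BSO livers. The sums were 80926.3 to 88518.5 CPM in *Cse*+/- no-Trp and 111175 to 111706 CPM in control livers. Kidney tubule markers summed to 21.6 CPM in control mouse av22 and 6.05 CPM in *Cse*-/- no-Trp mouse av15, and to at most 0.901 CPM elsewhere. Red cell markers (*Alas2*, *Hba-a1* and *Hbb-bs*) summed to 59.4 to 101 CPM in *Cse*-/- no-Cys and 172 to 363 CPM in *Cse*+/- no-Cys livers, and all 3 were called lower (median of −1.94). In the same comparison 1 of 4 stellate markers (*Lrat*) and 1 of 4 cholangiocyte markers (*Sox9*) were called lower, and the medians of the 6 Kupffer cell and macrophage and the 4 endothelial markers were −0.33 and −0.26. Pancreas markers summed to at most 1.69 CPM and adipocyte markers to at most 3.70 CPM. The part of these markers in the results below was not tested. In bulk RNA, fewer cells of a type and less RNA of its markers per cell cannot be told apart. Mice av01, av08 and av15 were the least like the other livers of their groups over all genes (mean r of 0.970, 0.970 and 0.968).

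Levels between genes were compared per kilobase of exon, as means over the 20 livers. *Bhmt* was the highest at 275 ± 135 CPM per kb (SD, n = 20). *Pemt* (168 ± 16.2), *Sardh* (159 ± 27.5), *Pcyt2* (141 ± 28.5), *Dmgdh* (134 ± 28.0), *Bhmt2* (112 ± 20.7) and *Aldh7a1* (102 ± 19.0 CPM per kb) followed. *Chdh*, the first step of choline oxidation, was lower at 19.8 ± 3.39 CPM per kb. The lowest of the 10 genes were *Pcyt1a* at 10.0 ± 1.16 and *Chka* at 1.79 ± 0.306 CPM per kb. *Chkb*, which encodes the other choline kinase, is not among the 10. In CPM, not per kb, its group means were 54.4 to 70.9 and those of *Chka* 17.9 to 25.1. The level of *Chka* is therefore not that of the kinase step.

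**Figure D2:**
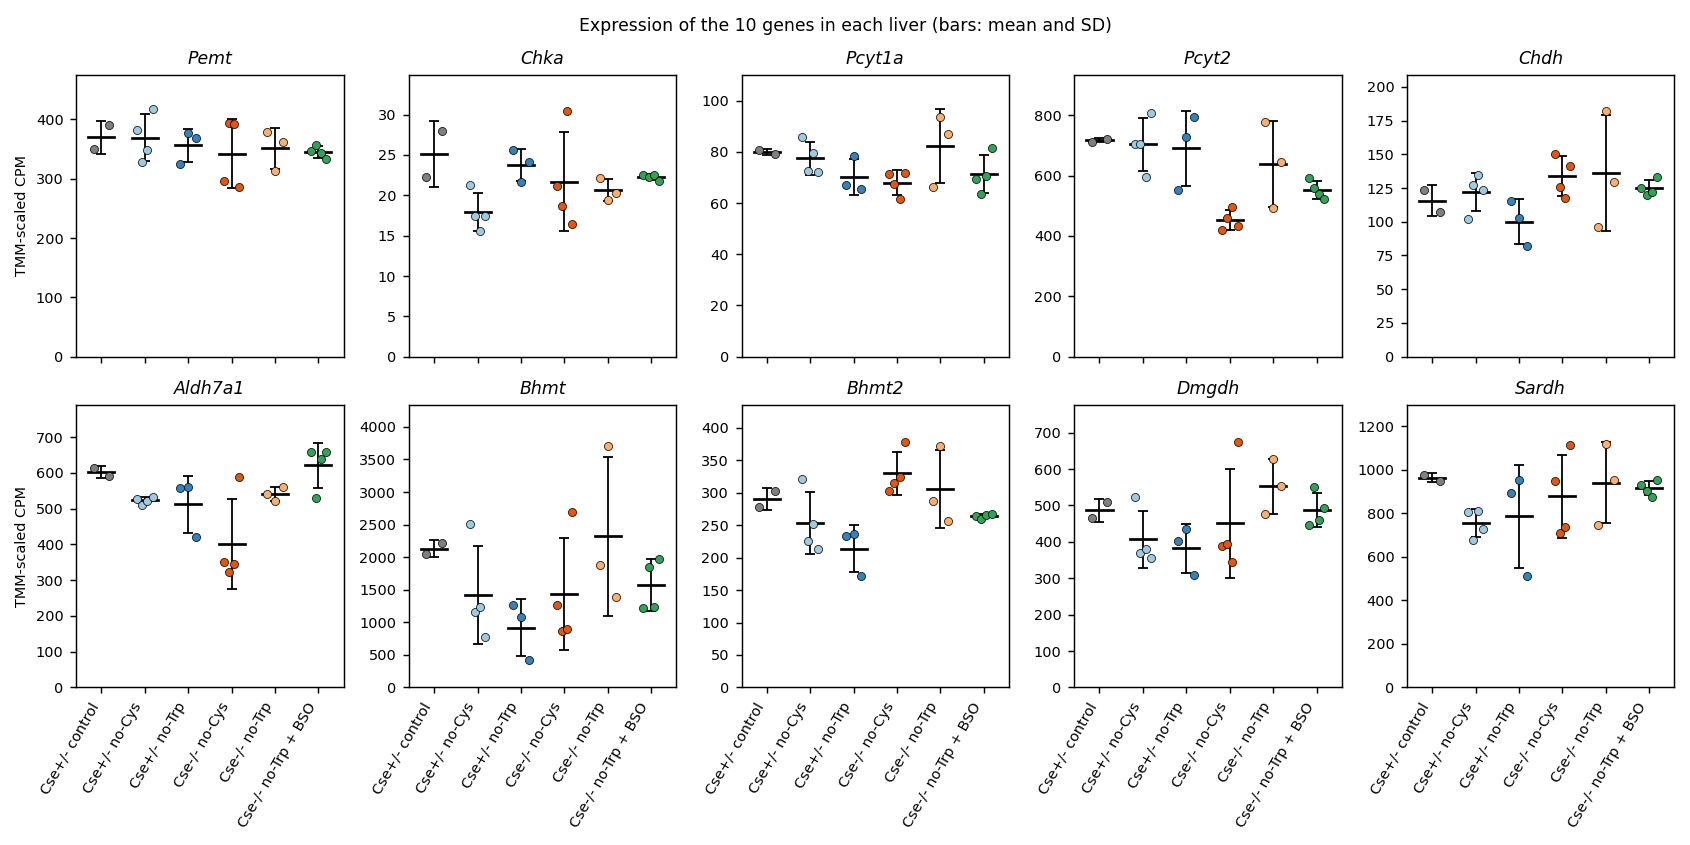
Level of each of the 10 genes (y axis, TMM-scaled CPM, starting at 0) in each liver (points) of the 6 groups (x axis), with the group mean and SD as lines. *Pcyt2* is lowest in the *Cse*-/- no-Cys group (421 to 495 CPM), 3 of its 4 livers are lowest for *Aldh7a1* (322 to 350 CPM), and *Bhmt* spreads widely within most groups.

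Of the 4 synthesis genes, *Pcyt2* changed with genotype on the no-Cys diet and the others did not pass the test. *Pcyt2*, which makes CDP-ethanolamine and sets the pace of the ethanolamine branch, was at 703, 703, 596 and 809 CPM in *Cse*+/- no-Cys livers. In *Cse*-/- no-Cys livers it was at 421, 458, 495 and 432 CPM. Both groups were apart, with every *Cse*-/- liver below every *Cse*+/- liver. The difference was −0.64 ± 0.13 on the log2 scale (standard error), so that the level fell by 35.8% (edgeR adjusted p = 0.0015). Of all genes tested, 12.2% were lower and 11.6% higher in this comparison (23.8% in all), and 2 of the 10 genes were called, *Pcyt2* lower and *Bhmt2* higher. The groups did not overlap for 23.2% of all genes and for 2 of the 10, *Pcyt2* and *Pcyt1a*. Without any 1 of the 8 livers, the *Pcyt2* difference ranged from −0.71 to −0.56 and kept its call. Of the 6 hepatocyte markers, 4 were also called lower in this comparison (*Alb*, *Apoa1*, *Serpina1a* and *Ttr*), and *Fgb* (−0.39) and *Apob* (0.15) were not called.

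By group mean, control livers were the highest for *Pcyt2*, and the no-Trp groups lay between the no-Cys groups. In *Cse*-/- no-Trp livers it was at 776, 491 and 645 CPM, in *Cse*-/- no-Trp + BSO livers at 592, 560, 538 and 524 CPM. In *Cse*+/- no-Trp livers it was at 552, 726 and 793 CPM and in control livers at 713 and 722 CPM. The 4 *Cse*-/- no-Cys values were below all of these apart from the 491 CPM of mouse av15, which is below the 495 CPM of mouse av07. Against *Cse*-/- no-Trp livers, where 10.4% of all genes were called and 5.35% were lower, *Pcyt2* fell by 0.50 ± 0.14 (edgeR adjusted p = 0.029), the only one of the 10 genes called. The call was lost when only these groups were fitted (edgeR adjusted p = 0.096) and without mouse av05, av06, av14 or av16 (differences without 1 liver of −0.66 to −0.33). In this comparison 3 of the 6 hepatocyte markers (*Apoa1*, *Serpina1a* and *Ttr*, list median of −0.48) and 1 of the 3 red cell markers (*Alas2*) were also called lower. Against *Cse*-/- no-Trp + BSO livers the groups did not overlap, as for 12.7% of all genes, but the difference of −0.29 ± 0.13 was not called (edgeR adjusted p = 0.21). The difference between genotypes on the no-Cys diet minus that on the no-Trp diet was −0.52 ± 0.20 and was not called (edgeR adjusted p = 0.14), although it was called without mouse av15 (−0.68).

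The choline branch showed smaller differences. *Pcyt1a*, whose enzyme makes CDP-choline and limits the rate of PC synthesis from choline, was at 85.6, 72.5, 79.5 and 72.0 CPM in *Cse*+/- no-Cys and 71.2, 67.5, 61.4 and 71.8 CPM in *Cse*-/- no-Cys livers. The groups only just failed to overlap, and the difference of −0.19 ± 0.11 was not called (edgeR adjusted p = 0.21). *Pcyt1a* was 66.1, 93.6 and 87.1 CPM in *Cse*-/- no-Trp livers, and without mouse av14, the lowest of these, the *Cse*-/- no-Cys group was called lower than it (−0.41, against −0.27 ± 0.11 with all livers, edgeR adjusted p = 0.13). *Chka*, the kinase of the first step, was at 21.3, 17.4, 15.6 and 17.4 CPM in *Cse*+/- no-Cys livers, below both control livers (22.2 and 28.0 CPM) and below the *Cse*+/- no-Trp livers (25.6, 21.6 and 24.1 CPM). The groups did not overlap, as for 25.6% and 19.0% of all genes, and neither difference was called (−0.49 ± 0.17, edgeR adjusted p = 0.15, and −0.41 ± 0.15, adjusted p = 0.11). In *Cse*-/- no-Cys livers *Chka* ran from 16.5 to 30.5 CPM and overlapped all other groups.

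*Pemt*, which methylates PE to PC at the cost of S-adenosylmethionine (SAM), was the steadiest of the 10 genes across groups. Its group means lay between 342 and 370 CPM, a ratio of 1.08 between the highest and the lowest. In *Cse*-/- no-Cys livers it was at 297, 394, 392 and 287 CPM, and in *Cse*+/- no-Cys livers at 381, 329, 349 and 418 CPM. These values overlap, with a difference of −0.11 ± 0.11 (edgeR adjusted p = 0.51).

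**Figure D3:**
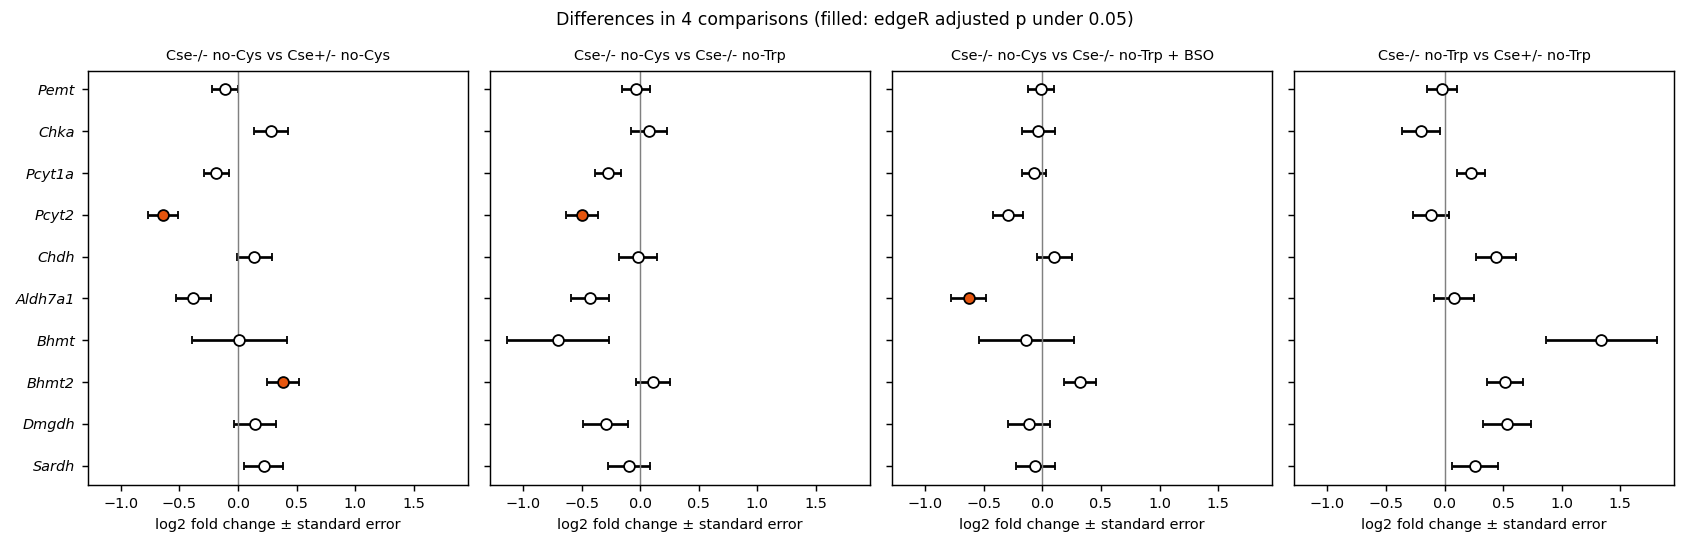
Log2 fold change of the 10 genes (points, with standard errors as bars, x axis) in 4 comparisons, with filled points for an edgeR adjusted p under 0.05. *Pcyt2* is filled in the 2 left panels (−0.64 and −0.50), *Bhmt2* in the first (0.38) and *Aldh7a1* in the third (−0.63), and *Bhmt* has the widest bars.

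Choline oxidation starts with *Chdh*, choline dehydrogenase, and *Aldh7a1*, the dehydrogenase that turns betaine aldehyde into betaine and also serves lysine breakdown. *Aldh7a1* was at 350, 322, 346 and 590 CPM in *Cse*-/- no-Cys livers. In *Cse*+/- no-Cys livers it was at 528, 510, 522 and 534 CPM, in *Cse*-/- no-Trp livers at 541, 522 and 561 CPM, and in *Cse*-/- no-Trp + BSO livers at 659, 529, 639 and 660 CPM. Mice av05, av06 and av07 were below every other liver of the study, whereas av08 of the same group was not. *Cse*+/- no-Trp livers held 558, 560 and 421 CPM and control livers 614 and 590 CPM.

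Against *Cse*-/- no-Trp + BSO livers, where 2.75% of all genes were called and 1.42% were lower, *Aldh7a1* fell by 0.63 ± 0.15 (edgeR adjusted p = 0.031), the only one of the 10 genes called. The groups overlapped because of av08, and the call was lost when only these groups were fitted (edgeR adjusted p = 0.066) and without any of av05, av06, av07, av09, av11 and av12. Of the 6 hepatocyte markers, 3 were called lower in this comparison (*Apoa1*, *Serpina1a* and *Ttr*, list median of −0.53). The differences of *Aldh7a1* from *Cse*+/- no-Cys (−0.38 ± 0.15, edgeR adjusted p = 0.069) and from *Cse*-/- no-Trp livers (−0.43 ± 0.16, adjusted p = 0.090) were not called. Without av08 both were called (−0.63 and −0.67), as was the difference between the genotype effects on both diets (−0.70, against −0.46 ± 0.23 with all livers, edgeR adjusted p = 0.27). Hepatocyte markers summed to 72043 CPM in av08 and to 41478, 43067 and 44949 CPM in the other livers of its group.

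*Chdh* was at 150, 126, 118 and 142 CPM in *Cse*-/- no-Cys livers and at 102, 127, 135 and 123 CPM in *Cse*+/- no-Cys livers. The groups overlapped, with a difference of 0.14 ± 0.15 (edgeR adjusted p = 0.54). The widest range was in *Cse*-/- no-Trp livers, from 96.4 CPM in av14 to 182 CPM in av15. Their difference from *Cse*+/- no-Trp livers (115, 103 and 82.1 CPM) was 0.44 ± 0.17 and was not called (edgeR adjusted p = 0.17), although it was called without av14 (0.62).

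*Bhmt*, betaine-homocysteine methyltransferase, returns a methyl group from betaine to homocysteine. It varied more between mice of one group than nearly all other genes: its within-group SD was 0.664 on the log2 scale, larger than that of 98.9% of 7845 genes with a mean of at least 10 CPM, whose median SD was 0.160. In *Cse*+/- no-Cys livers *Bhmt* was at 2504, 1165, 1235 and 777 CPM and in *Cse*-/- no-Cys livers at 1263, 859, 903 and 2693 CPM. In each group 1 liver (av01 and av08) stood far above the others. The estimate of the difference was 0.01 ± 0.41 (edgeR adjusted p = 0.99), and it moved from −0.49 without av08 to 0.43 without av01. No direction can be read from it.

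On the no-Trp diet *Bhmt* was at 1880, 3704 and 1387 CPM in *Cse*-/- and at 1260, 1079 and 418 CPM in *Cse*+/- livers, without overlap. The difference was 1.34 ± 0.48, the largest estimate among the 10 genes in any comparison, but it was not called (edgeR adjusted p = 0.14). The highest liver, av15, was the *Cse*-/- no-Trp liver with kidney markers at 6.05 CPM, and without it the estimate was 0.83. With BSO added, *Bhmt* was at 1221, 1856, 1238 and 1974 CPM, and the control livers were at 2041 and 2220 CPM.

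*Bhmt2*, a related methyltransferase that takes its methyl group from S-methylmethionine, was at 303, 315, 325 and 378 CPM in *Cse*-/- no-Cys livers. In *Cse*+/- no-Cys livers it was at 322, 226, 252 and 213 CPM. Only av01, at 322 CPM, reached into the *Cse*-/- range. *Bhmt2* rose by 0.38 ± 0.13 (edgeR adjusted p = 0.045), just inside the threshold, and the call was lost when only these groups were fitted (edgeR adjusted p = 0.063) and without av02, av03, av04, av06, av07 or av08. Over all 8 livers left out in turn, the difference ranged from 0.31 to 0.52. In *Cse*-/- no-Trp livers it was at 288, 373 and 257 CPM and in *Cse*+/- no-Trp livers at 234, 236 and 172 CPM, without overlap. That difference was 0.52 ± 0.16 and was not called (edgeR adjusted p = 0.078). The difference between the genotype effects on both diets was −0.13 ± 0.21 (edgeR adjusted p = 0.78). *Cse*-/- no-Trp + BSO livers were close together at 264, 259, 266 and 267 CPM, below all *Cse*-/- no-Cys livers, with a difference of 0.32 ± 0.13 that was not called (edgeR adjusted p = 0.19).

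*Dmgdh* and *Sardh* are mitochondrial flavoenzymes that remove the remaining methyl groups from dimethylglycine and sarcosine. *Dmgdh* was at 390, 394, 345 and 674 CPM in *Cse*-/- no-Cys and at 524, 369, 380 and 356 CPM in *Cse*+/- no-Cys livers. As with *Bhmt*, av08 and av01 were far above the others, and the difference of 0.15 ± 0.18 was not called (edgeR adjusted p = 0.59) and changed sign without av08 (−0.11). On the no-Trp diet *Dmgdh* was at 477, 627 and 553 CPM in *Cse*-/- and 401, 436 and 308 CPM in *Cse*+/- livers. Those groups did not overlap, and the difference of 0.53 ± 0.21 was not called (edgeR adjusted p = 0.17). Without av08 *Dmgdh* was called lower in *Cse*-/- no-Cys than in *Cse*-/- no-Trp livers (−0.55, against −0.29 ± 0.19 with all livers, edgeR adjusted p = 0.35).

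*Sardh* was at 951, 712, 738 and 1117 CPM in *Cse*-/- no-Cys and at 807, 679, 811 and 729 CPM in *Cse*+/- no-Cys livers. The groups overlapped (0.22 ± 0.17, edgeR adjusted p = 0.38). Its lowest value of the study was 513 CPM in *Cse*+/- no-Trp mouse av20 and its highest 1122 CPM in *Cse*-/- no-Trp mouse av15.

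In the other 6 comparisons, the interaction included, 0 of the 10 genes were called by edgeR. For *Cse*-/- against *Cse*+/- livers on the no-Trp diet, edgeR called 2.64% of all genes and 0 of the 10. DESeq2 called 722 of 27464 genes and 1 of the 10, *Bhmt2*. An unadjusted p under 0.05 from edgeR was found for 4 of the 10 (*Chdh*, *Bhmt*, *Bhmt2* and *Dmgdh*, all higher). The share of all genes at that unadjusted threshold was not counted, so no excess is read from the 4. The groups did not overlap for 3 of the 10, *Bhmt*, *Bhmt2* and *Dmgdh*, against 19.6% of all genes. Adding BSO to the no-Trp diet in *Cse*-/- mice (0.793% of all genes called) gave 0 calls by edgeR, 0 with an unadjusted p under 0.05 and 0 by DESeq2. For the genotype by diet interaction (4.36% of all genes called by edgeR), 0 were called by edgeR and 0 by DESeq2. An unadjusted p under 0.05 from edgeR was found for 4 (*Chka*, *Pcyt1a*, *Pcyt2* and *Bhmt*), again without a matching share of all genes for the interaction. *Pcyt1a* was called here without av14 (−0.54, against −0.41 with all livers).

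Among *Cse*+/- mice the diets gave no calls either. The counts below at an unadjusted p (edgeR) have no matching share of all genes, which was not counted, so no excess is read from them. Between the no-Cys and no-Trp diets (8.04% of all genes called by edgeR), 0 of the 10 were called, 1 had an unadjusted p under 0.05 (*Chka*) and DESeq2 called 0. For the no-Cys diet against control (2.18% called by edgeR), 0 were called, 1 had an unadjusted p under 0.05 (*Chka*) and DESeq2 called 0. For the no-Trp diet against control (0.0474% called by edgeR), 0 were called, 2 had an unadjusted p under 0.05 (*Bhmt* and *Bhmt2*) and DESeq2 called 0. All 10 estimates of this last comparison were negative, from −1.21 ± 0.52 for *Bhmt* to −0.05 ± 0.14 for *Pemt*, and without 1 of the livers those of *Chka*, *Pcyt2* or *Pemt* turned positive. On the no-Cys diet 9 of 10 were negative, where that of *Pemt*, near 0, turned positive with RLE factors. Both comparisons share the same 2 control livers. The groups did not overlap for 5 of the 10 genes on the no-Trp diet (*Pcyt1a*, *Aldh7a1*, *Bhmt*, *Bhmt2* and *Dmgdh*), against 27.4% of all genes, and for 3 on the no-Cys diet (*Chka*, *Aldh7a1* and *Sardh*), against 25.6%.

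The order of the groups differed between genes. *Cse*-/- no-Cys livers had the lowest mean for *Pemt*, *Pcyt1a*, *Pcyt2* and *Aldh7a1* and the highest for *Bhmt2*. *Cse*+/- no-Trp livers had the lowest mean for *Chdh*, *Bhmt*, *Bhmt2* and *Dmgdh*. Of the 5 pairs of neighbouring groups in each order, 1 did not overlap for *Pcyt2*, *Aldh7a1*, *Bhmt* and *Bhmt2*, and 0 for the other genes. How many of all genes have such a pair was not counted, so no excess is read from this. The ratio of the highest to the lowest group mean was 2.53 for *Bhmt*, 1.59 for *Pcyt2*, 1.55 for *Aldh7a1* and 1.54 for *Bhmt2*.

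In some mice all 6 oxidation genes lay on 1 side of their group means; how often other sets of genes do so was not tested. Within groups, the correlation of log2 CPM over the 20 livers ran from 0.26 (*Chdh* and *Aldh7a1*) to 0.88 (*Bhmt* and *Bhmt2*) between these genes. Of the synthesis genes, *Pcyt1a* correlated positively with all 6 (0.33 to 0.66). *Pcyt2* (−0.83 to −0.20) and *Pemt* (−0.65 to −0.29) correlated negatively with all 6, and *Chka* ran from −0.46 to 0.02. Mice av01, av08 and av15 are the libraries least like their groups over all genes. In av08 all 6 were above the mean of their group, by a median of 0.48 on the log2 scale, and in av06 and av07 of the same group all 6 were below (medians of −0.21 and −0.20). Among *Cse*+/- no-Trp livers, av17 and av19 had all 6 above (medians of 0.18 and 0.18) and av20 all 6 below (−0.30). In av01 and av15, 5 of 6 were above (medians of 0.23 and 0.29), and in av14 all 6 were below (−0.19). Mouse av12 of the BSO group had all 6 above by a smaller margin (0.07). Within 1 group such deviations add up to 0, so a high liver makes the others low. *Cth* had its highest value of the study in av01, at 332 CPM against 125, 132 and 121 CPM in its group, and among *Cse*-/- no-Cys livers it was highest in av08, at 13.3 CPM against 6.37, 7.04 and 6.83 CPM. Of the synthesis genes in av08, *Pcyt1a* was also above its group mean (by 0.08), whereas *Pcyt2* (−0.06), *Pemt* (−0.24) and *Chka* (−0.36) were below. *Pemt* had its lowest value of the study there (287 CPM).

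**Figure D4:**
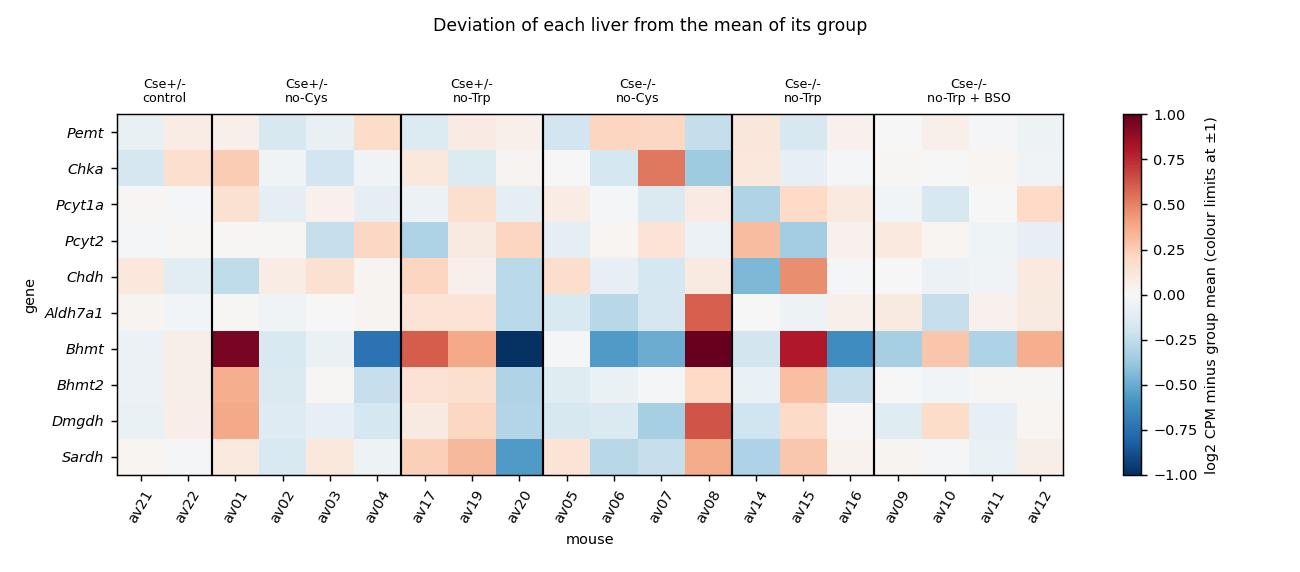
Log2 CPM of each gene (rows) in each mouse (columns) minus the mean of its group, in colour, with limits at 1 and −1. In the 6 lower rows av08, av12, av17 and av19 are above their group means and av06, av07, av14 and av20 below in all 6, and *Bhmt* has the deepest colours.

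The genes with the pattern most like each gene, by Pearson r of log2 CPM over the 20 livers among 7845 genes, are given without a test, since these values share libraries, groups and depth. *Pcyt2* was most like *Cdk2* (r = 0.934) and *Ptms* (0.931). For *Aldh7a1* they were *Aspdh* (0.917) and *Ldhd* (0.909), and for *Chdh* *Snx19* (0.914) and *Cog4* (0.891). *Bhmt* was most like *Gm5096* (0.965) and *Dmgdh* (0.881), and *Dmgdh* like *Bhmt* (0.881) and *Fzd4* (0.873). *Bhmt2* was closest to *Lpp* (0.881) and *Bloc1s6* (0.873), *Sardh* to *Ifnar1* (0.876) and *Abat* (0.872). *Pcyt1a* was closest to *Pik3cb* (0.883) and *Tut7* (0.787), *Chka* to *Kdm6b* (0.821) and *Gm12966* (0.772), and *Pemt* to *Gm14303* (0.764) and *Zfp451* (0.759).

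*Gm5096* shares sequence with *Bhmt*. Of the 61-base words of *Bhmt* transcripts, 24.0% also occur in *Gm5096*, *Bhmt-ps1* or *Gm15622*, a gene that overlaps it, so reads may have been split or lost between them. *Gm5096* was at 26.4 to 348 CPM, highest in av15, av08 and av01, as *Bhmt* was. The share was 0% for *Pemt* and *Pcyt2*, 1.63% for *Chka* and 3.87% to 8.59% for the others. The library kit does not mark strand, so that reads of *Bhmt* and of *Gm15622* in their overlap cannot be told apart. *Gm15622* was at 1.53 to 44.5 CPM.

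Wider lists of the pathway were counted on the no-Cys diet, *Cse*-/- against *Cse*+/-, where the median over all genes was −0.01 on the log2 scale and 23.8% of all genes were called, 11.6% higher and 12.2% lower. The lists are small, and their counts are read against these shares without a test. Of 14 PC and PE synthesis genes, 13 were tested and 2 fell (*Pcyt2* and *Chpt1*), with a median of −0.05. *Chpt1*, whose enzyme joins CDP-choline to diacylglycerol, was at 149 to 192 CPM in *Cse*-/- and 194 to 222 CPM in *Cse*+/- livers (−0.33 ± 0.11, edgeR adjusted p = 0.038). *Chpt1* lost its call without av01, av02, av04, av05, av06 or av07, and with no filter on low counts (edgeR adjusted p = 0.065). Over all 8 livers left out in turn, its difference ranged from −0.41 to −0.26. *Chpt1* was also called lower in *Cse*-/- no-Cys than in *Cse*-/- no-Trp livers, as was *Pcyt2* (10.4% of all genes called). Against *Cse*-/- no-Trp + BSO livers (2.75% of all genes called), *Chpt1* was the only gene of this list called, again lower. Those 2 calls were not checked by leaving out livers.

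Of 10 choline and betaine transporters, 8 were tested: 3 fell (*Slc44a1*, *Slc44a2* and *Slc44a3*) and 1 rose (*Slc6a12*), with a median of −0.33. *Slc44a3*, of the choline transporter-like family, had the largest difference, from 11.3 to 14.1 CPM in *Cse*+/- to 1.30 to 5.09 CPM in *Cse*-/- livers (−2.14 ± 0.32, edgeR adjusted p = 1.0e-04). *Slc6a12*, the betaine and GABA transporter, rose from 71.3 to 94.1 CPM to 139 to 160 CPM (0.92 ± 0.16, edgeR adjusted p = 3.4e-04). *Slc44a2* fell by 0.46 ± 0.15 (edgeR adjusted p = 0.033), a call lost without av02, av03, av07 or av08, with no filter on low counts (edgeR adjusted p = 0.061) and after thinning to the shallowest library (0.065). It was at 8.02 to 10.9 CPM in *Cse*+/- and 6.08 to 7.38 CPM in *Cse*-/- livers.

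Of 11 genes of choline oxidation and the steps after it, all tested, 1 rose (*Bhmt2*) and 2 fell (*Pipox* and *Etfa*), with a median of 0.01. *Pipox*, a peroxisomal oxidase of sarcosine and pipecolate, fell by 0.79 ± 0.10 (edgeR adjusted p = 1.6e-05), from 308 to 363 CPM to 173 to 229 CPM. *Etfa*, a subunit of the flavoprotein that takes electrons from DMGDH and SARDH, fell by 0.45 ± 0.08 (edgeR adjusted p = 7.0e-04), from 435 to 508 CPM to 315 to 363 CPM. Both were also lower in *Cse*-/- no-Cys than in *Cse*-/- no-Trp livers, the only 2 of the 11 called there, where 10.4% of all genes were called and 5.35% were lower. Against *Cse*-/- no-Trp + BSO livers (2.75% of all genes called, 1.42% lower), *Pipox* and *Aldh7a1* were called, both lower.

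Of 22 genes of PC remodelling, turnover and export, 19 were tested: 2 rose (*Gpcpd1* and *Etnppl*) and 3 fell (*Pld2*, *Lypla1* and *Pnpla7*), with a median of −0.14. *Gpcpd1*, which splits glycerophosphocholine, was at 328 to 568 CPM in *Cse*-/- and 196 to 304 CPM in *Cse*+/- livers (0.89 ± 0.29, edgeR adjusted p = 0.032). *Gpcpd1* lost its call without av01, av04, av05 or av08. *Etnppl*, which breaks down phosphoethanolamine, the substrate of PCYT2, rose by 0.87 ± 0.21 (edgeR adjusted p = 0.0045). Its range was 217 to 321 CPM in *Cse*-/- and 102 to 235 CPM in *Cse*+/- livers. Both control livers were higher than the *Cse*+/- no-Cys livers for both genes, at 528 and 913 CPM for *Gpcpd1* and 256 and 351 CPM for *Etnppl*. From control to no-Cys in *Cse*+/- mice, *Gpcpd1* fell by 1.56 ± 0.34 (edgeR adjusted p = 0.019) and *Etnppl* by 0.99 ± 0.24 (edgeR adjusted p = 0.035). Of these, the *Gpcpd1* call was lost without control mouse av22 (−1.11), a fit that leaves only av21 as control. Mouse av22 carried kidney markers, and their part in this was not tested. The *Etnppl* call was lost without av02, av03, av04, av21 or av22 and when only these groups were fitted (edgeR adjusted p = 0.13). *Pld2*, a phospholipase that frees choline from PC, fell by 0.56 ± 0.16 (edgeR adjusted p = 0.014), a call lost without av05 or av07. It was at 4.13 to 6.60 CPM in *Cse*-/- and 6.45 to 8.92 CPM in *Cse*+/- livers.

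Of 8 neighbours in homocysteine and SAM metabolism, all tested, 3 rose (*Mat1a*, *Mtr* and *Mtrr*) and 1 fell (*Mat2a*), with a median of 0.28. *Mat1a*, the SAM synthetase of adult liver, rose by 1.01 ± 0.21 (edgeR adjusted p = 0.0020), the largest increase of the 5 lists. *Mtr*, methionine synthase, which remethylates homocysteine with folate in place of betaine, rose by 0.78 ± 0.20 (edgeR adjusted p = 0.0072), from 2.79 to 4.28 CPM to 5.21 to 6.75 CPM. *Mtrr*, the reductase that keeps MTR active, rose by 0.44 ± 0.12 (edgeR adjusted p = 0.011). The 10 genes named at the start had a median of 0.07 in the same comparison.

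**Figure D5:**
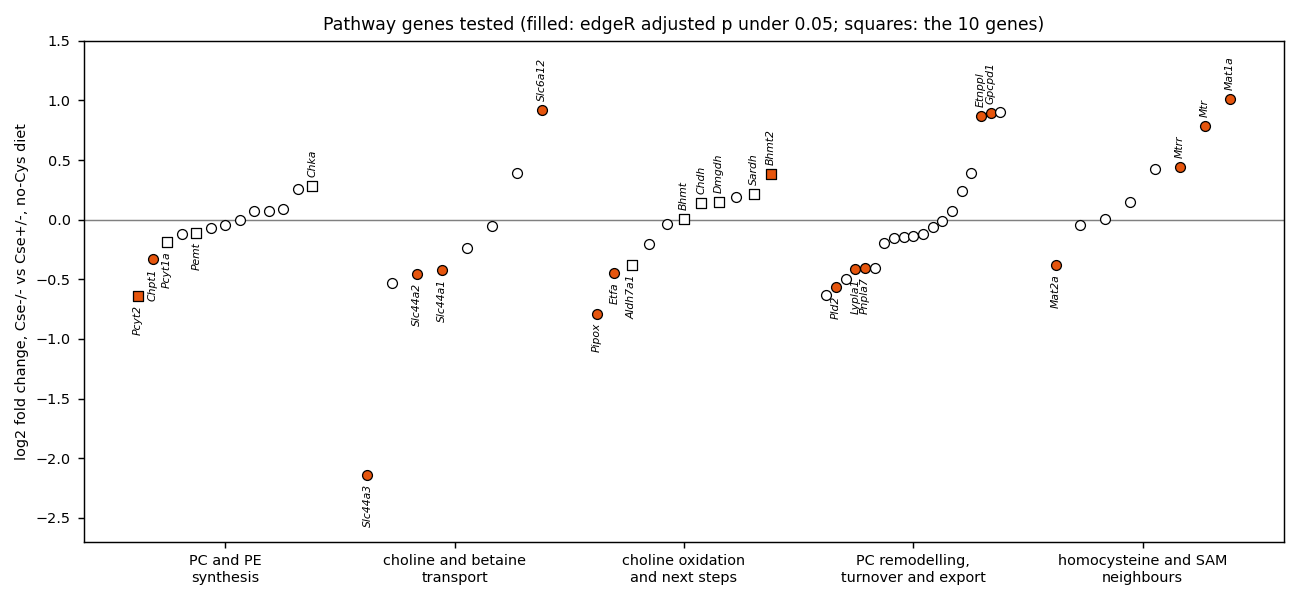
Log2 fold change of *Cse*-/- against *Cse*+/- livers on the no-Cys diet (y axis) for the tested genes of 5 lists (x axis, sorted within each list), with filled symbols for an edgeR adjusted p under 0.05 and squares for the 10 genes. *Pcyt2* (−0.64) is at the bottom of the first list, *Slc44a3* (−2.14) is the lowest of all, and *Mat1a* (1.01) the highest.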

How the data were processed

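Poly(A) RNA of 20 livers was sequenced. The authors aligned reads to GRCm38 with HISAT2 2.1.0 and counted them on genes with HTSeq 0.11.0, and the deposited values are raw counts per gene, not normalized (annotation release: not given in the sources used here). Libraries were tied to groups through the study's list of mice, and 1 column was not used, since that list does not give its condition. Counts were tested with edgeR 4.0.16 (R 4.3.3): filterByExpr (minimum count 10, total 15) kept 14759 genes, TMM factors were used, and 1 quasi-likelihood fit held a mean for each of 6 groups. Two-sided p-values were adjusted over all genes (Benjamini-Hochberg), and a gene was called at an adjusted p under 0.05. Standard errors are the log2 fold change over the square root of F. Mice are the replicates, and p-values measure the spread between them. The fit was checked on counts simulated from its own estimates of spread, which cannot show how unusual livers affect the calls. Levels are CPM, and log2 CPM for likeness used a prior count of 2. GENCODE M21 gave names and positions, and identities come from coding sequences, since protein sequences were not used here. All 10 genes are named, as are, per list, the non-members with the 3 largest changes among those called, *Cth* and the most similar genes. Genes and lists were chosen with earlier results of these data known. Alternatives were DESeq2 1.42.0, RLE and upper-quartile factors, other filters, fits of the compared groups only, thinning to 11785740 counts and leaving out each liver. Plots used Python 3.11.15 and matplotlib 3.10.9.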

Additional observations from a re-analysis of the deposited data

Results flagged for a closer look

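Of 30 groups of 4 livers tested for a sample far from the others (10 genes in 3 groups), 4 held one. Chance alone flags about 1 in 20 independent groups. These groups are not independent, since the 10 genes share the same livers and correlate, so no excess is read from the count. Mice av01 and av08 were also among the livers least like their groups over all genes. *Aldh7a1* in *Cse*-/- no-Cys mouse av08 was at 590 CPM, against 322 to 350 CPM in the other livers of the group. *Dmgdh* in the same mouse was at 674 CPM, against 345 to 394 CPM. *Dmgdh* in *Cse*+/- no-Cys mouse av01 was at 524 CPM, against 356 to 380 CPM. *Aldh7a1* in *Cse*-/- no-Trp + BSO mouse av10 was at 529 CPM, against 639 to 660 CPM in the others.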

How the results depend on the processing

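With RLE or upper-quartile factors, a mean CPM of at least 1 or thinning, the number of the 10 genes called was the same in all 9 comparisons. Among the list genes named, no filter ended the calls of *Slc44a2* (adjusted p = 0.061) and *Chpt1* (0.065) between genotypes on the no-Cys diet. Fits of only the groups compared called 1 for *Cse*-/- against *Cse*+/- livers on the no-Cys diet (*Bhmt2* lost, adjusted p = 0.063), and 0 for *Cse*-/- no-Cys against *Cse*-/- no-Trp (*Pcyt2*, adjusted p = 0.096) and against *Cse*-/- no-Trp + BSO livers (*Aldh7a1*, adjusted p = 0.066). For *Cse*-/- against *Cse*+/- livers on the no-Trp diet, no filter called 2 (*Bhmt*, adjusted p = 0.016, and *Bhmt2*, 0.048) and DESeq2 called 1 (*Bhmt2*, 0.029), against 0 by the edgeR fit. The cause was not tested. Over all genes, fits of only the groups compared called 521 for *Cse*-/- no-Cys against *Cse*-/- no-Trp, 75 for BSO added, 83 for genotypes on the no-Trp diet, 580 for *Cse*+/- no-Cys against no-Trp, 138 and 3 for no-Cys and no-Trp against control, and 375 for the interaction. No filter called 287 for BSO added, and 486 and 71 for no-Cys and no-Trp against control. DESeq2 called 352 for BSO added, 877 for *Cse*-/- no-Cys against *Cse*-/- no-Trp + BSO, 722 for genotypes on the no-Trp diet, 613 and 64 for no-Cys and no-Trp against control, and 1051 for the interaction. Estimates near 0 changed sign: *Bhmt* for genotypes on the no-Cys diet (−0.0087 with upper-quartile factors and −0.0022 at a mean CPM of at least 1), *Pemt* for *Cse*+/- no-Cys against control (1.7e-04 with RLE factors, 0.0074 at a mean CPM of at least 1, 0.0064 thinned and 8.6e-04 with DESeq2) and *Pemt* for *Cse*-/- no-Cys against *Cse*-/- no-Trp + BSO (0.0011 thinned). Leaving out each liver in turn, the 10 genes gave 1 to 2 for *Cse*-/- against *Cse*+/- livers on the no-Cys diet, 0 to 3 for *Cse*-/- no-Cys against *Cse*-/- no-Trp livers, 0 to 1 for *Cse*-/- no-Cys against *Cse*-/- no-Trp + BSO livers, 0 to 1 for *Cse*-/- against *Cse*+/- livers on the no-Trp diet, 0 to 1 for the genotype by diet interaction calls. All genes gave 2664 to 3500 (3515 with all livers) for *Cse*-/- against *Cse*+/- livers on the no-Cys diet, 683 to 1855 (1535 with all livers) for *Cse*-/- no-Cys against *Cse*-/- no-Trp livers, 52 to 1027 (406 with all livers) for *Cse*-/- no-Cys against *Cse*-/- no-Trp + BSO livers, 36 to 172 (117 with all livers) for BSO added to the no-Trp diet, 109 to 421 (389 with all livers) for *Cse*-/- against *Cse*+/- livers on the no-Trp diet, 597 to 1329 (1186 with all livers) for *Cse*+/- no-Cys against *Cse*+/- no-Trp livers, 10 to 418 (322 with all livers) for *Cse*+/- no-Cys against control livers, 2 to 9 (7 with all livers) for *Cse*+/- no-Trp against control livers, 350 to 1150 (643 with all livers) for the genotype by diet interaction. Estimates that changed sign without 1 liver ranged as follows: for *Cse*-/- against *Cse*+/- livers on the no-Cys diet, *Bhmt* −0.49 to 0.43, *Dmgdh* −0.11 to 0.29. For *Cse*-/- no-Cys against *Cse*-/- no-Trp livers, *Bhmt2* −0.0064 to 0.27, *Chdh* −0.22 to 0.24, *Chka* −0.13 to 0.18, *Pemt* −0.12 to 0.039, *Sardh* −0.24 to 0.044. For *Cse*-/- no-Cys against *Cse*-/- no-Trp + BSO livers, *Bhmt* −0.64 to 0.046, *Chka* −0.24 to 0.075, *Dmgdh* −0.37 to 0.0013, *Pcyt1a* −0.11 to 0.0056, *Pemt* −0.083 to 0.064, *Sardh* −0.20 to 0.033. For BSO added to the no-Trp diet, *Chdh* −0.32 to 0.13, *Pemt* −0.11 to 0.029, *Sardh* −0.18 to 0.097. For *Cse*-/- against *Cse*+/- livers on the no-Trp diet, *Aldh7a1* −0.045 to 0.14, *Pcyt2* −0.30 to 0.035, *Pemt* −0.093 to 0.049. For *Cse*+/- no-Cys against *Cse*+/- no-Trp livers, *Aldh7a1* −0.090 to 0.098, *Dmgdh* −0.047 to 0.20, *Pcyt2* −0.11 to 0.14, *Pemt* −0.012 to 0.10, *Sardh* −0.28 to 0.11. For *Cse*+/- no-Cys against control livers, *Chdh* −0.025 to 0.18, *Pcyt2* −0.095 to 0.051, *Pemt* −0.081 to 0.075. For *Cse*+/- no-Trp against control livers, *Chka* −0.23 to 0.099, *Pcyt2* −0.16 to 0.091, *Pemt* −0.12 to 0.032. For the genotype by diet interaction, *Bhmt2* −0.24 to 0.037, *Sardh* −0.20 to 0.19. No paired analysis was possible because the columns carry mouse numbers and no replicate numbers. With 2 to 4 livers a group, the precision is set by the spread between mice, above all for *Bhmt*; the 10 genes had at least 201 counts in every liver (*Chka*). Thinning to the shallowest library ended the call of *Slc44a2* between genotypes on the no-Cys diet (adjusted p = 0.065).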
